A study of Mus musculus with 2 samples.

Results

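The nuclear genes that copy and transcribe the mitochondrial genome were followed here in mouse heart. The set holds 10 genes, chosen by symbol from the 55536 annotated genes of the tables: Polg, Polg2, Twnk and Ssbp1 for replication, Polrmt, Tfam, Tfb2m and Tfb1m for transcription and its products, and Nrf1 and Gabpa, transcription factors that act on such genes. All 10 symbols were found, each under a single identifier. Hearts were those of male B6CASTF1/J mice, first-generation hybrids of the C57BL/6J and CAST/EiJ strains, at 14 days of age, with no treatment or altered allele named. A pair of libraries, called biological replicates 1 and 2 in the labels, formed the only group, so no conditions could be compared. Each library used 300 ng of total RNA from which ribosomal RNA had been depleted, and carried added spike-in RNAs. The labels speak of 3 males and give both libraries the same donor label, and whether animals were pooled is not stated, so the spread between the libraries may be technical.

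Mitochondrial DNA is a small circle present in many copies per cell, and it encodes subunits of the respiratory chain and the ATP synthase together with the ribosomal and transfer RNAs of the organelle. Every protein that copies or transcribes it is made from nuclear genes and imported. Twinkle unwinds the circle, the single-strand binding protein coats the exposed strand and DNA polymerase gamma copies it. The RNA polymerase POLRMT starts transcription together with TFAM, which also packages the DNA, and TFB2M. Heart muscle is rich in mitochondria and lives largely on oxidative metabolism.

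Of 39334380 expected counts in replicate 1 and 46391250 in replicate 2, the 10 genes took 8893 and 10795. The 7 cardiomyocyte markers (Myh6, Actc1, Myl2, Tnnt2, Tnni3, Ryr2 and Pln) summed to 34212 and 32589 TPM, and none was at 0. TPM is an abundance divided by transcript length and scaled so that every library has the same sum. Some markers of other cells and tissues differed between the libraries. The 4 atrial markers summed to 1585 TPM in replicate 1 and 492 in replicate 2, and the 8 T cell and thymus markers to 1.33 and 52.1. In counts, all 4 atrial markers were lower and 7 of 7 tested T cell and thymus markers were higher in replicate 2 by the rule for library differences used further on. Of the 3 brown adipocyte markers tested, 1 was lower in replicate 2 by that rule: Ucp1, at 9.76 and 0.32 TPM, with a log2 ratio of -4.95. The list of 4 summed to 39.3 and 25.04 TPM. By the same rule no cardiomyocyte marker, no erythroid marker and no marker of dividing cells differed. Without its 2-fold limit, all 5 markers of dividing cells were higher in replicate 2, with log2 ratios from 0.38 for Mki67 to 0.84 for Top2a. All 4 erythroid markers passed in that way too, with Slc4a1 higher in replicate 2 and the others lower. So did the cardiomyocyte markers Myh6, Tnnt2, Tnni3, Pln and Myl2, lower in replicate 2 with log2 ratios from -0.20 to -0.05. Actc1 was higher at 0.02, and Ryr2 did not pass. The brown adipocyte markers Cidea and Adipoq were lower in that way as well, at -0.21 and -0.67. Of all genes tested, 21.6% passed without the 2-fold limit. Erythroid markers summed to 12183 and 11505 TPM, and markers of dividing cells to 22.6 and 34.4. Skeletal muscle markers summed to 0.16 and 0.59 TPM, with Myh1 and Myh2 at 0, and liver markers to 0.30 and 0.54, with Serpina1a at 0, and none of these had counts enough to be tested. The part of these other cells in the levels below was not tested. In such bulk tissue a lower number of cells of a type and less RNA per cell cannot be told apart.

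All 10 genes were expressed at 1 TPM or more in both libraries, a level that 51.8% of protein-coding genes and 22.5% of all annotated genes reached. Their median level was 14.7 TPM in replicate 1 and 14.4 in replicate 2, and the median of the 11408 nuclear protein-coding genes detected at 1 TPM was 9.72 and 9.94. The set nevertheless spanned levels from 1.68 ± 0.00707 TPM (SD, n = 2) for Polg2 to 23.6 ± 0.403 for Tfam. Of the 10 genes, 6 lay above the median of detected genes in both libraries, and Twnk, Nrf1, Tfb1m and Polg2 lay below it. In order of mean level they ran Tfam, Polg, Gabpa, Polrmt, Tfb2m, Ssbp1, Twnk, Nrf1, Tfb1m and Polg2. Of the 9 neighbouring pairs in that order, 7 did not overlap between libraries. Gabpa and Polrmt did overlap, as did Tfb2m and Ssbp1, so neither pair differed beyond its spread. With 2 libraries, a lack of overlap is not a test of a difference. The kallisto-style tables, a second set of levels for the same libraries, kept the order of 7 of the 9 pairs. They reversed Polrmt and Tfb2m, at 15.6 and 18.8 TPM, as well as Tfb2m and Ssbp1.

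**Figure D1:**
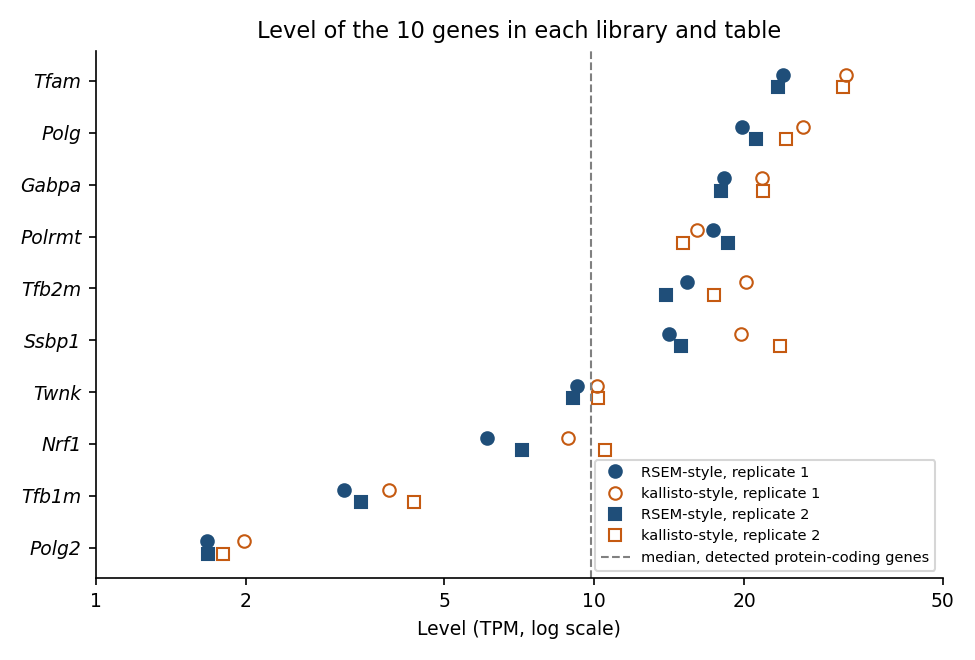
Level of each gene in TPM on a log axis, with filled symbols for the RSEM-style tables, open symbols for the kallisto-style tables, circles for replicate 1 and squares for replicate 2. The dashed line marks the RSEM-style median of detected nuclear protein-coding genes, the mean of 9.72 and 9.94 TPM. It does not apply to the open symbols, since kallisto-style levels of those genes were a median of 1.19 and 1.21 times the RSEM-style ones. The levels run from Polg2 near 1.68 TPM to Tfam at 23.6 TPM, and the kallisto-style value was the higher for every gene but Polrmt.

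The replication genes differed most among themselves. Polg (ENSMUSG00000039176, mm10 chr7:79446231-79466362, minus strand) encodes the catalytic subunit of DNA polymerase gamma. Its level was 19.8 TPM in replicate 1 and 21.1 in replicate 2, or 20.4 ± 0.905 (SD, n = 2), from 1713 and 2278 counts. Polg2 (chr11:106768253-106779537, minus strand) encodes the accessory subunit that holds the polymerase on its template as a dimer. It stood at 1.67 and 1.68 TPM, the lowest of the set, and only 5.87% of detected protein-coding genes were lower on average. The depth behind it was small, with 81 counts in replicate 1 (exact 95% Poisson interval 64.3 to 101) and 96 in replicate 2 (77.8 to 117). Polg thus exceeded Polg2 by 3.53 ± 0.06 on the log2 scale of TPM with a pseudocount of 0.1, or 11.6-fold, and by 3.67 in the kallisto-style tables. When protein-coding transcripts alone were counted the excess was 2.50.

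Twnk (chr19:45005663-45012762, plus strand), the gene of the Twinkle helicase, was at 9.22 and 9.04 TPM, or 9.13 ± 0.127, and the 2 libraries were nearly level. Ssbp1 (chr6:40471352-40484700, plus strand), the mitochondrial single-strand binding protein, was at 14.1 and 14.9 TPM, or 14.5 ± 0.552. Its level lay above Twnk by 0.66 ± 0.07 log2 units of TPM and below Polg by 0.49 ± 0.01. Ssbp1 makes the shortest RNA of the set, with a mean length of 1041 and 1049 bases in the gene tables. Its 407 and 519 counts were fewer than the 948 and 1120 of Twnk, whose RNA averaged 3459 and 3477 bases. Polg lay above Twnk by 1.15 ± 0.08 log2 units of gene TPM, but below it by 0.38 when protein-coding transcripts alone were counted.

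The transcription genes were closer together, with one exception. Tfam (ENSMUSG00000003923, chr10:71225464-71238280, minus strand), the DNA-packaging and promoter-binding factor, was the highest of the 10 genes at 23.9 and 23.3 TPM from 1009 and 1261 counts. It lay at the 76.6 and 75.7 percentile of detected protein-coding genes. Polrmt (chr10:79736123-79746581, minus strand), the RNA polymerase itself, was at 17.3 and 18.6 TPM, or 17.9 ± 0.898. Tfam exceeded Polrmt by 0.40 ± 0.10 log2 units of TPM, by 1.03 in the kallisto-style tables and by 1.21 in protein-coding transcripts alone.

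Tfb2m (chr1:179528055-179546267, minus strand) encodes the factor that melts the mitochondrial promoter with the polymerase, and Tfb1m (chr17:3519256-3557781, minus strand) encodes a related protein that methylates the small mitochondrial ribosomal RNA. Tfb2m was at 15.3 and 13.9 TPM, or 14.6 ± 1.01, and Tfb1m at 3.14 and 3.41 TPM from 127 and 165 counts. Tfb2m was the higher of this pair in both libraries, by 2.12 ± 0.18 log2 units of TPM or 4.36-fold. The kallisto-style tables gave 2.16 log2 units for the same pair. Polrmt over Tfb2m was 0.29 ± 0.17 log2 units in the RSEM-style tables but -0.27 in the kallisto-style tables, so the order of these genes depended on the table.

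Nrf1 (chr6:30047988-30153458, plus strand) encodes nuclear respiratory factor 1, a transcription factor that binds the promoters of many nuclear genes for mitochondrial proteins. It was at 6.09 and 7.16 TPM, or 6.62 ± 0.757. Gabpa (chr16:84834925-84863779, plus strand), the DNA-binding subunit of GA-binding protein, also called nuclear respiratory factor 2, was at 18.2 and 18.0 TPM. Nrf1 lay below Gabpa by 1.44 ± 0.18 log2 units of TPM (the log2 ratio was -1.44), and Tfam lay above Nrf1 by 1.82 ± 0.19. Gabpb1, one of the genes for the partner subunit of GABP, was at 6.46 and 7.14 TPM, and Gabpa exceeded it by 1.40 ± 0.11 log2 units. A total of 12 such pairs were computed, and with 2 libraries an exact sign-flip test cannot give a p below 0.5, so none was tested.

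The transcripts behind these levels were of uneven kind. For 7 of the 10 genes, protein-coding transcripts made up more than 80% of the gene's TPM in both libraries of the RSEM-style tables. The exceptions were Polg at 38.1% and 30.9%, Polrmt at 59.1% and 54.2%, and Polg2 at 74.3% and 63.7%. Less than 50% of the TPM lay in protein-coding transcripts for Polg alone, 1 of 10 genes, where 6.93% of detected protein-coding genes with several transcripts fell under that mark in both libraries. The leading transcript was the same in both kinds of table for 8 of 10 genes, and for 76.6% of such genes in all. The set thus stood close to the background on this count. By the mean over both libraries, Tfam and Polg were the exceptions. In replicate 1 alone they were Tfam and Nrf1, and in replicate 2 alone Tfam and Polg.

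**Figure D2:**
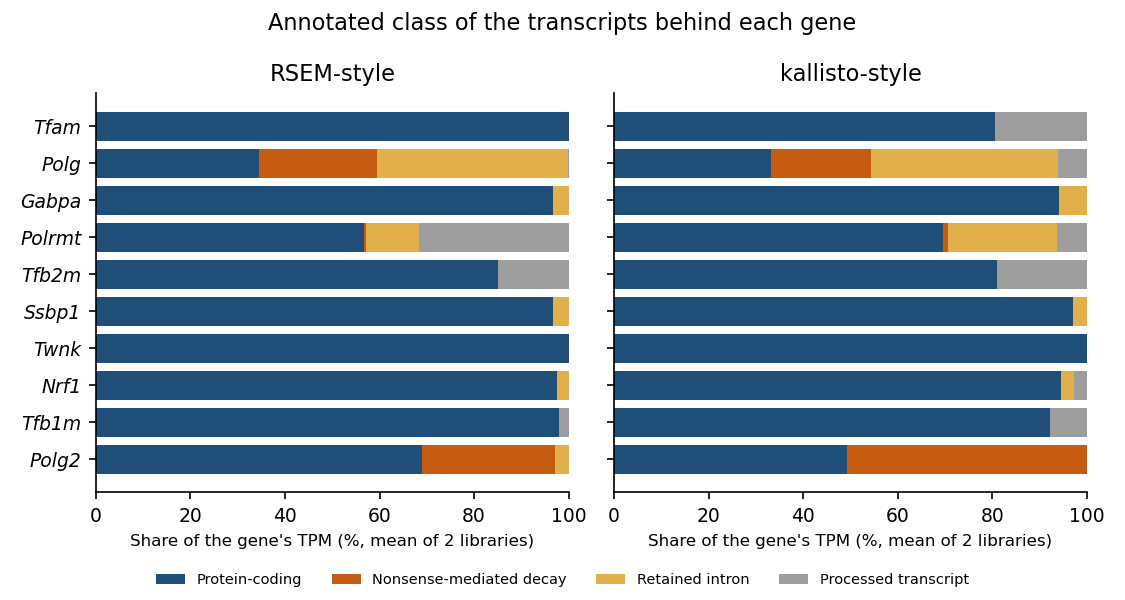
Share of each gene's TPM, in percent and averaged over the 2 libraries, that was assigned to transcripts of each annotated class, with the RSEM-style tables on the left and the kallisto-style tables on the right. Protein-coding transcripts fill most bars, while Polg is divided between protein-coding, nonsense-mediated decay and retained-intron models in both kinds of table and Polrmt has a processed-transcript share in the RSEM-style tables that is smaller in the kallisto-style ones.

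Polg has 18 annotated transcripts, of which 15 were above 0 in either kind of table. The largest share in the RSEM-style tables went to Polg-213, a model annotated for nonsense-mediated decay, the pathway that removes RNAs with an early stop, at 23.3% and 23.9% of the gene's TPM. Next came Polg-203, a retained-intron model, at 19.4% and 19.98%. Polg-201, the longest model at 7837 bases and the only one of the gene with a consensus coding sequence, held 7.46% and 7.18%, or 1.48 and 1.51 TPM. The kallisto-style tables gave Polg-213 18.0% and 18.4%, Polg-203 16.8% and 25.7%, and Polg-201 6.40% and 6.57%. In counts, Polg-213 took 586 and 768, Polg-203 527 and 693 and Polg-201 350 and 430 in replicates 1 and 2 of the RSEM-style tables. The models also differ in where they end. Polg-201 runs to chr7:79446231, Polg-203 (4589 bases) only to 79449382 and Polg-213 (4247 bases) only to 79449563. TPM divides by length, and the part of the ends in the shares was not tested. Polg-203 and Polg-213 differ from Polg-201 in short internal stretches as well. These are shown here from the GENCODE M21 transcripts, minus strand, because reads over them bear on which model is counted. Capitals mark the 78 bases of an intron (chr7:79452029-79452106) that Polg-203 keeps, and the 76 exon bases (chr7:79459437-79459512) of Polg-201 that Polg-213 leaves out, with 12 bases of neighbouring transcript on each side in lower case.
Polg-203 retained intron: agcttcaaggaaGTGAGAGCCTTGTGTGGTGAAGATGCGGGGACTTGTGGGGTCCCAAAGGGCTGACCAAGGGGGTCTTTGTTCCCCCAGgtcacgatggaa
Polg-201 stretch left out of Polg-213: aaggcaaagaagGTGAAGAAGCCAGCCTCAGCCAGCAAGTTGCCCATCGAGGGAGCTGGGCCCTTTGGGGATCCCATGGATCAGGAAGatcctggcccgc

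Tfam was assigned in full to protein-coding transcripts by the RSEM-style tables, but the tables did not share a leading one. Tfam-202 held 61.8% and 60.3% of the gene's TPM in the RSEM-style tables and 8.14% and 0% in the kallisto-style ones. Tfam-203 held 2.15% and 2.90% in the former and 57.6% and 54.5% in the latter. Tfam-204, a processed transcript, was at 0 in the RSEM-style tables but held 15.4% and 23.6% in the kallisto-style ones. Protein-coding transcripts thus made up 84.6% and 76.4% of the gene in the kallisto-style tables. Tfam-201, the model with the consensus coding sequence, was steadier, with 21.9% and 24.5% in the RSEM-style and 18.9% and 21.9% in the kallisto-style tables. It took the most counts of the gene in the RSEM-style tables, 651 and 852, against 307 and 350 for Tfam-202. TPM divides by length, and Tfam-201 has 4167 bases, Tfam-202 779 and Tfam-203 899. The models also differ in where they end: at chr10:71225464 for Tfam-201, 71228457 for Tfam-202 and 71228512 for Tfam-203. The part of the ends in the shares was not tested. The 3 models begin their coding sequence in different exons, and the coding part of each first coding exon is given from GENCODE M21, minus strand of chromosome 10, in lower case throughout. It covers 101 bases in Tfam-201 (chr10:71237840-71237940), 17 in Tfam-202 (chr10:71238235-71238251) and 85 in Tfam-203 (chr10:71236916-71237000).
Tfam-201: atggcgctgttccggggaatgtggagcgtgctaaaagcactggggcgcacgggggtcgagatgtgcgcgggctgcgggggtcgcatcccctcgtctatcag
Tfam-202: atggcaggggcctgggg
Tfam-203: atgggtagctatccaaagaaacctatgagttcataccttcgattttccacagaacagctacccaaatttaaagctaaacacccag

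Polrmt-201, the full-length coding model of the polymerase, led in both kinds of table, with 40.4% and 35.2% of the gene's TPM in the RSEM-style tables and 50.2% and 65.2% in the kallisto-style tables. Polrmt-205, a processed transcript of 374 bases, held 25.1% and 31.6% in the RSEM-style tables from 36.5 and 59.2 counts, and was listed at 0 in the kallisto-style tables. Since TPM divides by length, these few counts gave it 4.34 and 5.87 TPM. Polg2-201, the only protein-coding model of the accessory subunit, held 74.3% and 63.8% in the RSEM-style and 51.0% and 47.5% in the kallisto-style tables, the rest going mainly to nonsense-mediated decay models. Twnk-201 held 97.8% and 99.1%, Tfb1m-201 97.9% and 98.2%, Tfb2m-201 87.2% and 82.9%, and Ssbp1-203 84.2% and 85.9% of their genes' TPM in the RSEM-style tables. Gabpa was divided between the coding transcripts Gabpa-201, at 59.8% and 56.5%, and Gabpa-202, at 37.0% and 40.3%. Nrf1 has 20 annotated transcripts, of which 14 were above 0 in the RSEM-style tables, led by Nrf1-210 at 38.7% and 39.4%. In the kallisto-style tables Nrf1-210 held 29.5% and 26.5% and Nrf1-218 held 31.8% and 22.9%, so that Nrf1-218 led in replicate 1.

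Transcripts with a consensus coding sequence (CCDS), which mark agreed full-length coding models, gave another view of the set. This count was chosen after the values were seen. Such transcripts held a median of 80.7% and 73.3% of the TPM of the 10 genes in replicates 1 and 2, and of 78.4% and 77.6% over the 11241 detected nuclear protein-coding genes that have one. Polg, at 7.32 ± 0.220%, and Tfam, at 23.2 ± 1.84% (SD, n = 2), were the 2 members with less than 25% in both libraries, a mark under which 7.30% of those genes fell. Counted this way, Polg-201 stood at 1.48 and 1.51 TPM, beside 1.24 and 1.07 TPM for Polg2-201. The ratio of these transcript levels was 1.19 and 1.41, and in the kallisto-style tables it was 1.66 and 1.86. It depends on length, since Polg-201 has 7837 bases and Polg2-201 1506. In RSEM-style counts Polg-201 took 350 and 430, and Polg2-201 53.5 and 55.3. Twnk-201, at 9.01 and 8.97 TPM, exceeded Polg-201 by 6.09-fold and 5.94-fold in the RSEM-style tables and by 5.93-fold and 6.29-fold in the kallisto-style tables. Polrmt-201 was at 6.99 and 6.54 TPM and Tfam-201 at 5.23 and 5.71 TPM.

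At gene level the tables were closer. None of the 10 genes differed 2-fold between the kallisto-style and RSEM-style tables in both libraries, where 2.12% of detected protein-coding genes did. The kallisto-style level was higher in both libraries for 9 of 10 genes and lower for Polrmt, at 0.930 and 0.811 of the RSEM-style level. The median ratio of kallisto-style to RSEM-style TPM was 1.27 and 1.23 for the set and 1.19 and 1.21 for all detected protein-coding genes. The largest ratios were those of Nrf1, at 1.45 and 1.47, and Ssbp1, at 1.40 and 1.58.

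The RNA these proteins work to produce was far more abundant than their own. The 13 mitochondrially encoded protein-coding genes summed to 121486 TPM in replicate 1 and 116378 in replicate 2, and the 10 nuclear genes to 129 and 131 TPM. For each unit of Tfam TPM there were 5087 and 4993 units of mitochondrial protein-coding TPM, or 5040 ± 67.0 (SD, n = 2), the lowest ratio of the set in these tables. The ratio was 5828 ± 435 for Polg, 6648 ± 535 for Polrmt, 8149 ± 317 for Tfb2m and 8207 ± 561 for Ssbp1. For Polg2 it reached 71009 ± 2456. The median over the set was 8264 and 8092 in the 2 libraries. These ratios depend on the transcripts counted and on length. Over protein-coding transcripts alone the ratio was 16994 for Polg and 11722 for Polrmt, and without division by length it was 1972 for Polg, 3117 for Polrmt, 3822 for Tfb2m and 8465 for Ssbp1.

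Among the products, mt-Co1, mt-Co3 and mt-Cytb, subunits of the cytochrome c oxidase and the bc1 complex, were the highest messengers in the RSEM-style tables. They stood at 1340 and 1358, 586 and 632, and 570 and 566 times the TPM of Tfam. This order depended on the table. While mt-Atp6 was at 12823 and 11419 TPM in the RSEM-style tables, it was at 25972 and 25189 in the kallisto-style tables. There it lay above mt-Cytb, at 16937 and 16788 TPM, and mt-Co3, at 10074 and 10130. The ribosomal RNAs mt-Rnr2 and mt-Rnr1 stood at 4663 and 4683 and at 2386 and 2362 times that of Tfam, after a depletion step aimed at ribosomal RNA. Of the 13 protein-coding genes, 12 lie on one strand of the circle and had a median of 8302 and 7743 TPM. The only one on the other strand, mt-Nd6, a subunit of complex I, was at 1275 and 1188 TPM. The lowest, mt-Co2, was at 344 and 454 TPM in the RSEM-style tables but at 2457 and 2899 in the kallisto-style tables. Of the 31-base words of mt-Co2, 99.5% also occur in Gm28661, one of the nuclear copies of mitochondrial sequence on chromosome 1, so reads of the 2 genes are hard to tell apart. The words of mt-Co3 are shared to 99.9% with Gm28437, those of mt-Atp6 to 99.5% with Gm10925 and those of mt-Co1 to 29.6% with Gm29216. Those of mt-Cytb and mt-Nd6 are shared to 0% with any of these copies. Together the copies named took 59148 and 56382 TPM in the RSEM-style and 53356 and 53132 TPM in the kallisto-style tables. The part of shared reads in the gap between the tables was not tested. With the copies added to the mitochondrial sum, the median ratio over the set rose from 8178 to 12150. The kallisto-style tables also listed mt-Atp8 at 0, where the RSEM-style tables gave 3589 and 3334 TPM, and mt-Nd4l at 133 and 103 TPM, where the RSEM-style tables gave 8489 and 7650. The 22 transfer RNA genes were listed at 0 TPM in the RSEM-style tables.

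**Figure D3:**
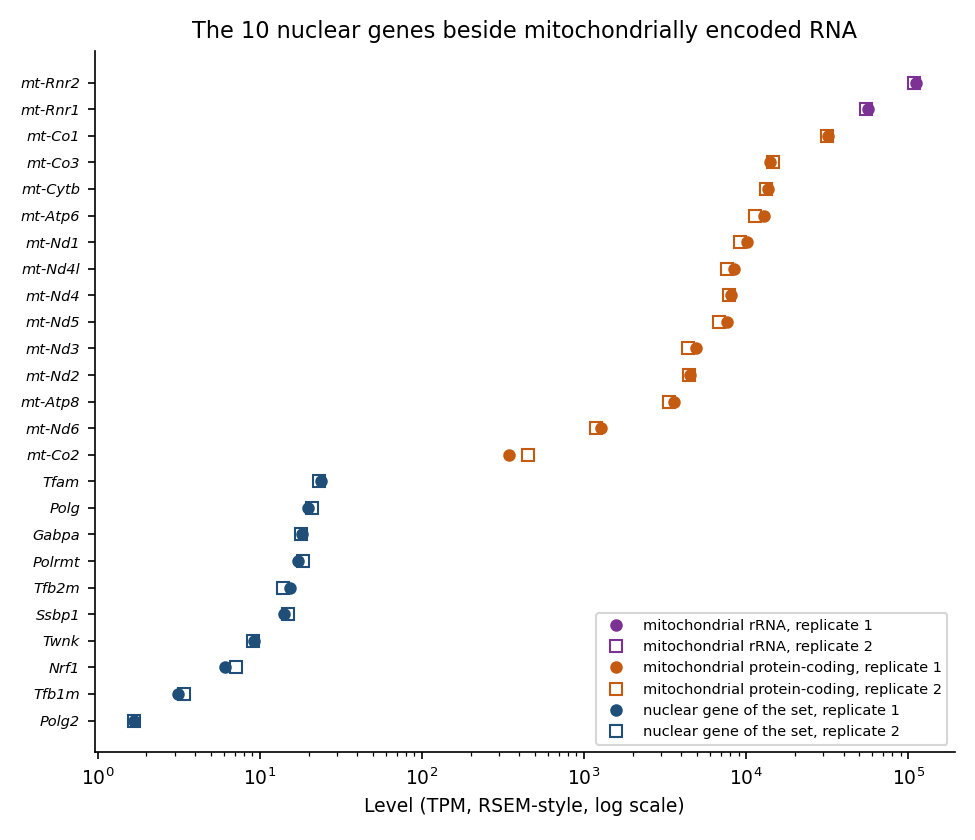
RSEM-style level in TPM on a log axis of the mitochondrial ribosomal RNAs, the 13 mitochondrial protein-coding genes and the 10 nuclear genes, with filled circles for replicate 1 and open squares for replicate 2. Every mitochondrially encoded gene plotted lies above all nuclear genes of the set, from mt-Co2 at 344 and 454 TPM up to mt-Rnr2 at 111341 and 109168, while Tfam, the highest nuclear gene, is at 23.6 TPM.

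None of the 10 genes differed 2-fold between the libraries (exact binomial test on counts, TMM-scaled library sizes, Benjamini-Hochberg adjusted p under 0.05 and a log2 ratio of at least 1), where 3.17% of the 16611 genes tested did. This test compares the libraries, not conditions, and covers counting error only. All 10 genes passed the count minimum, which asked for 10 counts per library or for 20 over both. At an unadjusted p under 0.05 the binomial test picked 2 of them, and the edgeR exact test with an assumed biological coefficient of variation of 0.1 picked 0. That test called 2.35% of all genes 2-fold apart at an adjusted p under 0.05 and 0 of the 10. Without the limit on the size of the ratio, 2 of 10 passed the adjusted threshold, against 21.6% of all genes tested. Tfb2m was lower in replicate 2, with a log2 ratio of -0.21 (exact 95% interval -0.33 to -0.08, adjusted p = 0.00936 by the exact binomial test). Polg was higher in replicate 2 by 0.13 (0.04 to 0.22, adjusted p = 0.0246 by the exact binomial test), a call that the kallisto-style counts did not give. All 10 ratios lay inside the central 95% of detected protein-coding genes, which ran from -0.42 to 0.48. The T cell and thymus markers were higher and the atrial markers and Ucp1 lower in replicate 2, as given above, and their part in the ratios of Tfb2m and Polg was not tested.

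**Figure D4:**
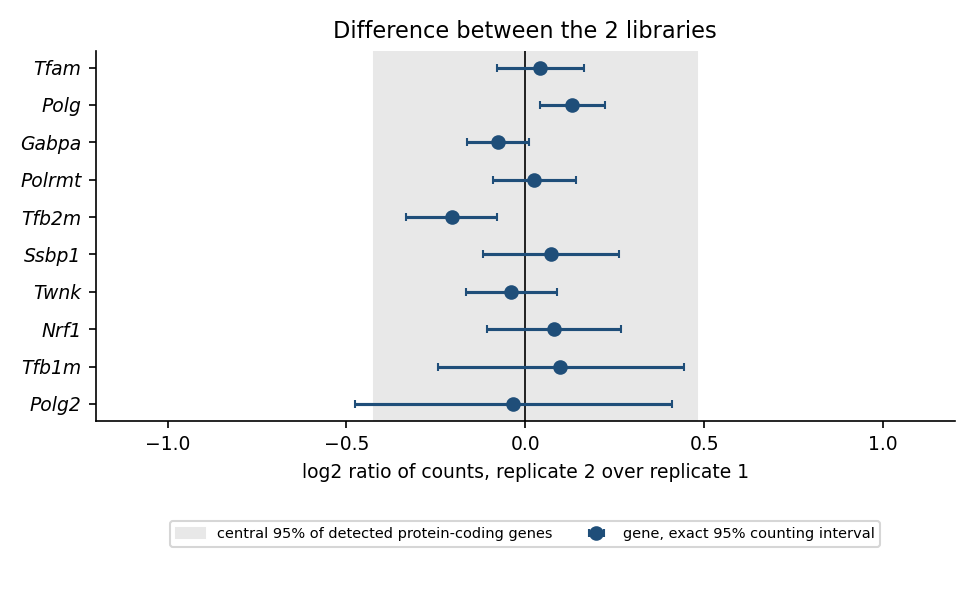
Log2 ratio of counts in replicate 2 over replicate 1 for each gene, scaled by TMM library sizes, with exact 95% intervals for counting error. The grey band is the central 95% of detected nuclear protein-coding genes, from -0.42 to 0.48. All 10 points lie inside it, and the intervals of Tfb2m and Polg exclude 0.

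Short stretches upstream of the genes were searched for the letters bound by the regulators in the set. The windows, from RefSeq on GRCm38.p6, run from 250 bases before to 50 after each transcription start, and all 10 genes matched, Nrf1 and Twnk with 2 windows each. The core letters CCGGAAG of the GABP motif, on either strand, were in a window of 7 of 10 genes: Tfam, Polg, Polg2, Twnk, Polrmt, Ssbp1 and Gabpa itself. They were in a window of 9.93% of all 27025 genes with one and of 20.8% of the detected protein-coding genes among them. The core letters GCGCATGC of the NRF1 motif were in a window of 2 of 10 genes, Tfb2m and Polrmt, against 3.05% of all genes and 6.23% of detected protein-coding genes. The letters of the 2 cores do not overlap in Polrmt, the only gene with both. Neither was found in the windows of Nrf1 or Tfb1m. The comparison for NRF1 depended on the letters searched. The looser core GCGCANGC, in which N is any base, was in the same 2 of 10 genes. It was in 11.2% of all genes but in 23.5% of detected protein-coding genes. The shorter GABP core CGGAAG was in 8 of 10 genes, against 18.8% and 36.0%. A match of letters is a description, not a binding site, and no binding was measured.

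The sites are printed on the strand of the gene with 10 bases on each side and the core in capitals, so that cores on the opposite strand read CTTCCGG or GCATGCGC. Positions are counted from the RefSeq start, with -1 just before it. The core of Tfam begins at -47 (site chr10:71238075-71238101) and that of Ssbp1 also at -47 (chr6:40471411-40471437), that of Polg at -38 (chr7:79466295-79466321), and that of Polg2 at -29 (chr11:106779550-106779576).
Tfam GABP core: ctgccgcggaCCGGAAGtccgggcttc
Ssbp1 GABP core: gctccgtgcgCCGGAAGcgagccgctg
Polg GABP core: aggacctcacCCGGAAGtccctctgca
Polg2 GABP core: gggtgacgctCTTCCGGgggcgtggtc
Gabpa GABP core: agggtaagtgCTTCCGGgtccctcagc
Tfb2m NRF1 core: taggtcgttcGCATGCGCcattcgtaat

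The core of Gabpa begins at -93 (chr16:84835021-84835047), and the NRF1 core of Tfb2m lies after the start, from base 14 (chr1:179546246-179546273). In several genes the GENCODE annotation starts upstream of the RefSeq start, by 236 bases for Tfam, 116 for Ssbp1, 89 for Polg and 199 for Gabpa, so that these cores lie within the annotated extent of the gene. Longer stretches are given for Polrmt and Twnk. That of Polrmt runs from 150 bases before to 30 after its start (chr10:79746552-79746731, minus strand). It is shown because it holds both cores, the NRF1 core from -133 and the GABP core from -43. Only the exact cores are in capitals. The lower-case letters gcgtgcgc in the Polrmt stretch also match the looser NRF1 core, on the opposite strand. For Twnk, the 115 bases before its second start (chr19:45006443-45006557, plus strand) hold the GABP core on the opposite strand at -110 and again at -66. The window at its first start, 45005663, where the GENCODE annotation of Twnk begins, holds neither core. That start lies 895 bases upstream of the second. The 5′ end of Mrpl43, a gene on the opposite strand, lies 779 bases from the first start of Twnk, between the 2 starts.
Polrmt promoter: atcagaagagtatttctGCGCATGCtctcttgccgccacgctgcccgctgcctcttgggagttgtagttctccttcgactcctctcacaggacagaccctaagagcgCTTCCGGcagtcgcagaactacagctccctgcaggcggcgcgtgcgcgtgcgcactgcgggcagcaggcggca
Twnk promoter: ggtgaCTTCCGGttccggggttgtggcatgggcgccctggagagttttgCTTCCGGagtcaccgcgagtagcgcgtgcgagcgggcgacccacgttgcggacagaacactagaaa

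**Figure D5:**
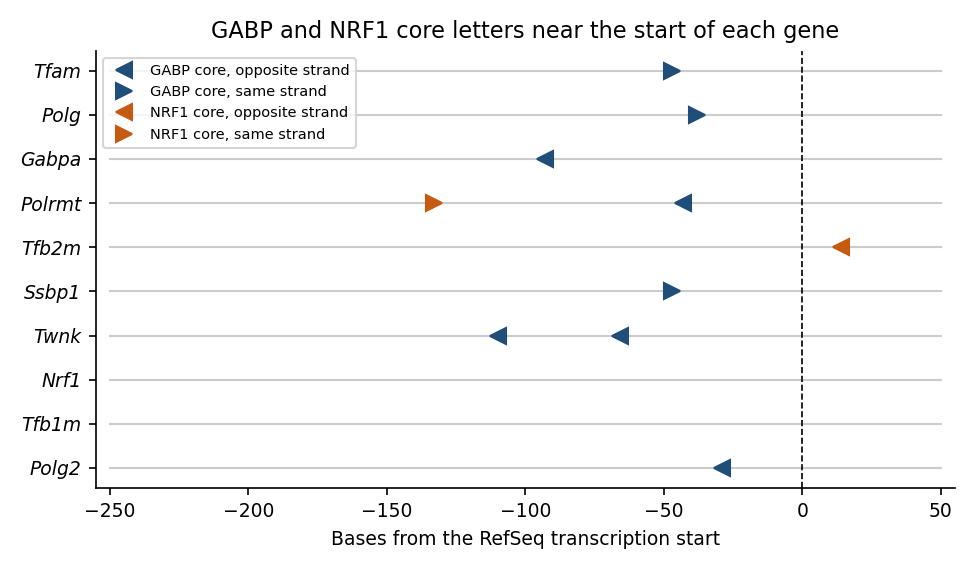
Position of the first base of each GABP or NRF1 core within the window from 250 bases before to 50 after the RefSeq start, with 1 row per gene and arrowheads for the strand relative to the gene. GABP cores lie between -110 and -29 in 7 genes, with those of Twnk counted from its second start. The NRF1 core lies at -133 in Polrmt and at 14 in Tfb2m, and no mark appears for Nrf1 or Tfb1m.

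Several of the genes share their start region with another gene. An opposite-strand gene whose 5′ end lay within 1 kb was annotated for 5 of 10 genes, and for 27.1% of detected protein-coding genes. Gabpa starts opposite Atp5j, which encodes a subunit of the ATP synthase, with 700 bases between the 5′ ends and overlapping gene bodies. Atp5j was at 674 and 676 TPM, 37.3 ± 0.467 times the level of Gabpa. Twnk starts opposite Mrpl43, a protein of the large mitochondrial ribosomal subunit, which was at 21.9 and 22.1 TPM, 2.41 ± 0.0537 times the level of Twnk. Tfb2m starts 103 bases from Cnst, which encodes consortin, a protein of connexin trafficking, at 19.5 and 17.9 TPM. Cnst stood at 1.27 and 1.29 times the TPM of Tfb2m. The other two partners were low: Gm10616 beside Polg was at 0.15 and 0.12 TPM and the long noncoding RNA 1700102H20Rik beside Tfb1m at 0.37 and 0.11.

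Further genes overlap the set on the opposite strand. Fanci, a DNA repair gene that overlaps Polg over 4034 bases, was at 0.35 and 0.60 TPM, and Milr1 beside Polg2 at 0.46 and 0.59. Tiam2, within the span of Tfb1m, was at 1.15 and 1.10 TPM and Cldn20 at 0 and 0.05. Gm15480 in Tfb2m and Gm25580 in Nrf1 were listed at 0. The libraries are stranded per the labels, but how strand was used in counting is not given in the sources used here. Milr1 and Tiam2 reached 0.313 and 0.344 times the level of Polg2 and Tfb1m, and the part of shared reads in those low levels was not tested.

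Fixed lists of further genes set the members in their wider machinery. Of 24 further genes of mitochondrial DNA replication and nucleotide supply, 21 were detected at 1 TPM in both libraries, with a median level of 8.05 and 9.46 TPM. The highest were Slc25a4, the ADP/ATP carrier of heart and muscle, at 2092 and 1986 TPM, and Sucla2 (302 and 298 TPM) and Suclg1 (223 and 221 TPM), subunits of succinate-CoA ligase. The 3 below 1 TPM in both libraries were the helicase and nuclease Dna2, the helicase Pif1 at 0.52 and 0.52 TPM, and the thymidine phosphorylase Tymp at 0.20 and 0.08. Dna2 was at 0.32 and 0.79 TPM, from 35 and 88 counts. It was the only gene of 23 tested in this list that was 2-fold higher in replicate 2 (log2 ratio 1.05, adjusted p = 0.00179 by the exact binomial test), and none was lower. Over all 16611 genes tested, 3.17% differed by that rule, so 1 call among 23 is close to the background. Markers of dividing cells summed to 22.6 and 34.4 TPM in the same libraries, and their part in the ratio of Dna2 was not tested.

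Among 9 genes of transcription elongation, termination and RNA stability, 7 were detected in both libraries, with a median level over all 9 of 9.06 and 10.2 TPM. The others, Mterf1a (0.85 and 1.26 TPM) and Mterf1b (0.82 and 1.27 TPM), are closely related copies and reached 1 TPM in replicate 2. Mrpl12, a ribosomal protein that also binds POLRMT, led at 98.1 and 100.3 TPM, before Lrpprc at 64.7 and 62.2 and Slirp at 57.1 and 66.6, whose products together protect mitochondrial messenger RNA. All 19 genes of RNA processing and decay were detected, at a median of 11.8 and 11.3 TPM. Fastk (93.7 and 98.0 TPM), Grsf1 (81.6 and 82.0 TPM), an RNA-binding protein of mitochondrial RNA granules, and Hsd17b10 (70.0 and 66.9 TPM), a subunit of mitochondrial RNase P, were highest. All 14 genes listed as regulators of mitochondrial biogenesis were detected, at a median of 16.6 and 18.7 TPM. The highest of the list was Nfe2l1, at 148 and 147 TPM. It is a different transcription factor from nuclear respiratory factor 1 and shares only the older name NRF1 with it. Next came the coactivator Ppargc1a at 52.5 and 65.1 TPM and the nuclear receptor Esrra at 51.7 and 55.7. In these 3 lists, 0 of 9, 0 of 19 and 0 of 14 genes differed 2-fold between the libraries in either direction by the exact binomial test. With 3.17% of all genes tested called, 0 calls in lists of this size cannot be told apart from the background.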

How the data were processed

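Total RNA sequencing of mouse heart was deposited as 2 libraries of 1 group. Per the file headers, the authors deposited RSEM-style gene and transcript tables (expected counts, TPM and its posterior mean, and each transcript's percent of its gene), and kallisto-style transcript tables of estimated counts and TPM. The deposited readme names mm10 and annotation M21; the aligner is not given in the sources used here. Column names gave the tool names used.

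Members and lists were chosen with earlier results of these data known. Genes named are all members, genes overlapping or facing a member, and of each wider list the 3 highest and those under 1 TPM in both libraries. Of the mitochondrial genome they are the 3 highest and lowest messengers by RSEM-style TPM, mt-Nd6 and both ribosomal RNAs. Mterf1a, Mterf1b, Ucp1, Cidea, Adipoq, mt-Atp6, mt-Atp8, mt-Nd4l and the chromosome 1 copies were added after their values were seen. Symbols were joined by gene identifier, and kallisto-style values were summed per gene. Levels are RSEM-style TPM, mean ± SD over 2 libraries; pair ratios used a pseudocount of 0.1. Rounded expected counts entered an exact 2-sided binomial test with TMM sizes from edgeR 4.0.16, adjusted over all genes tested; it was tested on simulated data first. Alternatives were other tables, scalings, transcript sets, thresholds and single libraries. Intervals cover counting error only. DESeq2 1.42.0 size factors were an alternative. Python 3.11.15, scipy 1.17.1 and R 4.3.3 were used.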

Additional observations from a re-analysis of the deposited data

How the results depend on the processing

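No paired analysis was possible because both libraries belong to the same group. The counts of members detected, of members that differed between libraries, of members 2-fold apart between tables, of shared leading transcripts and of promoter cores each moved by less than 1.5 times under every alternative run. With a detection threshold of 5 TPM, 8 of 10 members were left. The median level of the set, 14.6 TPM, was 17.1 in the kallisto-style tables, 9.64 over protein-coding transcripts alone, 34.5 when scaled to nuclear protein-coding genes and 24.0 as library-scaled counts without length; with 1 replicate left out it was 14.4 or 14.7. The median ratio of mitochondrial protein-coding TPM to member TPM, 8178, was 7931 with posterior means, 12374 over protein-coding transcripts alone, 3797 without length and, as an alternative chosen after seeing the data, 12150 with the chromosome 1 copies added; with 1 replicate left out it was 8092 or 8264. Of the 12 pair ratios, 5 kept their direction under every alternative run. Over protein-coding transcripts alone, reversals were Polg over Twnk at -0.38, Ssbp1 over Polg at 0.99, Polrmt over Polg at 0.53 and Polrmt over Tfb2m at -0.29 (log2 units). Polrmt over Tfb2m was -0.27 in the kallisto-style tables, and without length Ssbp1 over Twnk was -1.16 and Tfam over Polrmt -0.14. Over transcripts with a consensus coding sequence alone, an alternative also chosen after seeing the data, Polg over Twnk was -2.51, Ssbp1 over Polg 3.13, Tfam over Polrmt -0.30, Tfam over Ssbp1 -1.33, Polrmt over Tfb2m -0.87 and Polrmt over Polg 2.10. The cause was not tested, beyond what the change of length or transcripts itself alters. Levels of genes of few counts, Polg2 and Tfb1m, carry the widest counting intervals.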
